A study of Mus musculus with 8 samples.

Results

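Genes of leukaemia inhibitory factor (LIF) and cytokine receptor signalling were followed across 4 groups of mouse pre-iPSCs, which are cells held at an incomplete stage of reprogramming. The 10 genes were Il13ra1, Lifr, Il6st, Stat3, Socs3, Cish, Bcl3, Pim1, Pim3 and Junb. Every array probe annotated to 1 of these symbols was taken and kept apart, which gave 17 probes of 10 genes among 45281 probes of 19057 symbols, and 5 of the genes had more than 1 probe. The genes were chosen with earlier results of the same arrays in view, in which Nanog and Nanog+Sin3a cells had been set against empty-vector cells. The members' values in those 2 comparisons are therefore given as a description with no p-value.

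All cells came from female neural stem cells (strain 129/MF1), carried a GFP and puromycin-resistance reporter for Oct4, and grew on gelatin in serum medium with LIF. They were stably transfected with PiggyBac vectors carrying a CAG promoter, kept under hygromycin and/or blasticidin until stable, and harvested at day 0. The groups were Nanog with Sin3a (Nanog+Sin3a), Nanog with empty vector (Nanog), Sin3a with empty vector (Sin3a), and empty vectors alone (EV), with 2 Illumina bead arrays each (8 arrays). Nanog encodes a homeobox factor of pluripotent cells, and Sin3a is the scaffold of a histone deacetylase co-repressor complex. The labels do not say whether the arrays of a group came from separate cultures, so a p-value here reflects array-to-array spread alone, which may be technical.

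LIF binds a receptor made of Lifr and gp130, the product of Il6st, and the Janus kinases bound to it phosphorylate Stat3. Phosphorylated Stat3 enters the nucleus and switches on genes that include Socs3, whose product blocks the receptor and its kinases and so closes a negative feedback loop. In mouse embryonic stem cells grown in serum, this pathway is known for sustaining self-renewal. Il13ra1 belongs to a separate cytokine receptor, which binds interleukin-13 and, together with Il4ra, interleukin-4, and signals mainly through Stat6.

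The labels were checked on the transgenes. Of 2 Nanog probes, ILMN_1245732 read 289.5 and 285.2 in Nanog+Sin3a and 364.8 and 485.8 in Nanog cells, and it was below 0 on all Sin3a and EV arrays. The other, ILMN_2706623, was above the floor of 16 intensity units only on the first Nanog array (21) and did not separate the groups. The Sin3a probe read 1484.7 and 1483.3 in Nanog+Sin3a cells and 1182.1 and 1141.6 in Sin3a cells, against 344.4 and 472.5 in Nanog cells and 329.3 and 261.8 in EV cells. Values are background-subtracted intensities, so they can be negative, and an intensity of 16 served as a floor below which values have no order. The second Sin3a array stood apart: the arrays of a group correlated across probes at r = 0.982 in Nanog+Sin3a, 0.985 in Nanog, 0.817 in Sin3a and 0.992 in EV. Tests were therefore fitted on 7 arrays without it. For comparisons that involve Sin3a cells the 8-array value is given for some members, and others differ as well. Of the 17 member probes, 13, covering all 10 genes, were above the floor on at least 2 of the 7 arrays and were tested among 18558 probes, and 11 of them were above it on all 7.

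Markers of cell types were read beside the members. Pou5f1, the gene of Oct4, read 903.5 to 1167.3 on the 7 arrays, while the pluripotency genes Dppa3 and Esrrb stayed at or below the floor on all 7. Dppa5a was dim but above the floor on all 7 for both of its probes (21.8 to 36.8 and 17.6 to 52.6). Tdgf1 was above it on 5 (at most 39.2) and Zfp42 on 2 (at most 28.9). Klf2 and Tbx3 probe ILMN_3061990 were above it on 1 array each. The 8 pluripotency markers, with Pou5f1 as most of the sum, gave 980.9 to 1173.9 in Nanog+Sin3a cells, 1067.4 to 1160.2 in Nanog cells, 1188.9 on the first Sin3a array and 1113.5 to 1255.6 in EV cells. Of 7 neural stem cell markers, 6 were on the array, and their sum was 58.1 to 77.7 in Nanog+Sin3a cells and 84.8 to 93.3 in Nanog cells, against 146 on the first Sin3a array and 108.4 to 116.5 in EV cells. Most of this sum was Nes, whose brightest probe read 57.7 to 105.6 on the 7 arrays. Sox2 probe ILMN_2656102 read 0.4 to 42.6 and was above the floor on 2 of the 7, and Gfap, Pax6, Olig2 and Fabp7 were at or below it. Of the 6 fibroblast markers, Thy1 made up most of a sum of 434.4 to 481.4 in Nanog+Sin3a cells and 509.3 to 549.3 in Nanog cells, against 239.2 on the first Sin3a array and 215.6 to 238.6 in EV cells. Thy1 read 341.8 and 391.7 in Nanog+Sin3a cells and 508.3 and 443.8 in Nanog cells, against 230.1 on the first Sin3a array and 218.2 and 215.6 in EV cells. The brightest Dcn probe read 92.6 and 79.4 in Nanog+Sin3a cells and 16.6 and 34.4 in Nanog cells, and was at or below the floor on the first Sin3a array and both EV arrays. Col1a2, Col3a1 and Pdgfrb were at or below the floor on all 7 arrays, and Col1a1 was above it on 1. Macrophage and blood markers summed to at most 32 on any of the 7 arrays, with Csf1r, Lyz2, Itgam and Cd14 at or below the floor. The part of these markers in the results below was not tested.

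Among the receptor genes, Il13ra1, which encodes the alpha 1 subunit of the interleukin-13 receptor, differed most between groups. Its probe read 47.3 and 43.9 in Nanog+Sin3a cells, 54.0 and 49.3 in Nanog cells, 165.5 on the first Sin3a array and 248.9 and 222.7 in EV cells. All 4 arrays with the Nanog transgene were low and close together, all below the first Sin3a array, which in turn lay below both EV arrays. On the log2 scale it was lower by 2.37 (SE 0.16) in Nanog+Sin3a than in EV cells and by 2.19 (SE 0.16) in Nanog than in EV cells. The linear differences were 5.17-fold and 4.56-fold, and these 2 comparisons share the EV arrays. In RNA from whole cultures, fewer cells that express a gene and less RNA per cell cannot be told apart.

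The effect of adding Sin3a to Nanog on Il13ra1 was small beside that. Nanog+Sin3a cells differed from Nanog cells by -0.18 (SE 0.16, limma adjusted p = 0.725). Against Sin3a alone, Nanog+Sin3a cells were lower by 1.86 (SE 0.19), which passed the test in the 7-array fit (limma adjusted p = 0.0183). That call rests on the first Sin3a array: the second read 7.4, below the floor, and with it the difference was -0.18 (adjusted p = 0.942). At the brightness of this probe 85.4% of probes differed by over 1 on the log2 scale between the 2 Sin3a arrays, against 0.269% between the EV arrays. Sin3a cells against EV cells gave -0.51 (SE 0.19), which did not pass. With all 8 arrays that difference was -2.19, which did not pass either.

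Lifr, the LIF-binding chain of the receptor, was near the floor in every group. Its brightest probe, ILMN_2829008, read 5.3 and 29.5 in Nanog+Sin3a cells, 25.7 and 37.5 in Nanog cells, 33.1 on the first Sin3a array and 35.0 and 35.7 in EV cells. The Nanog+Sin3a arrays were both below the EV arrays but far apart from each other, and the Nanog arrays overlapped the EV arrays. The differences from EV were -0.70 (SE 0.34) in Nanog+Sin3a and -0.19 (SE 0.34) in Nanog cells, on the scale of values raised to the floor. The Nanog+Sin3a value was -0.26 with the first Nanog+Sin3a array left out and -1.14 with the second left out. The Nanog value was -0.46 without the second Nanog array and 0.0853 without the first. A second Lifr probe, ILMN_1242960, was at most 20.6 on any of the 7 arrays, and ILMN_2829015 was not tested.

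Il6st, which encodes the signalling chain gp130 shared by the interleukin-6 family, was detected by 1 of its 2 probes. This probe, ILMN_2608184, read 54.9 and 73.1 in Nanog+Sin3a cells, 55.3 and 37.9 in Nanog cells, 62.9 on the first Sin3a array and 52.0 and 51.1 in EV cells. The spread within the Nanog and Nanog+Sin3a groups was as wide as the gap between groups, and the Nanog arrays lay on both sides of the EV arrays. Nanog+Sin3a cells differed from EV cells by 0.30 and from Nanog cells by 0.47 (SE 0.26 each), and the second of these did not pass (limma adjusted p = 0.597).

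Stat3, the transcription factor that carries the LIF signal, had 3 probes, all above the floor on the 7 arrays, and their differences from EV did not share a sign. Probe ILMN_2698046 read 303.5 and 262.7 in Nanog+Sin3a cells, 373.6 and 234.7 in Nanog cells, 373.9 on the first Sin3a array and 392.0 and 369.4 in EV cells. Probe ILMN_2589790 read 236.5 and 237.9 in Nanog+Sin3a cells, 271.7 and 253.2 in Nanog cells, 259.9 on the first Sin3a array and 227.9 and 209.9 in EV cells. The first probe was thus lower in Nanog+Sin3a than in EV cells with wide spread between the Nanog arrays, while the second was higher in both groups with the Nanog transgene than in EV cells. The log2 differences from EV in Nanog+Sin3a cells were -0.43 (SE 0.21) and 0.12 (SE 0.10), and in Nanog cells -0.36 (SE 0.21) and 0.26 (SE 0.10). For the first probe the Nanog value was -0.70 without the first Nanog array and -0.0265 without the second. Probe ILMN_3096144 stands for another RefSeq transcript and differed from EV by -0.04 and 0.25 (SE 0.24 each) in Nanog+Sin3a and Nanog cells, so the probes give no common direction for Stat3.

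Socs3, the feedback inhibitor that binds gp130 and the Janus kinases, was lower with Nanog and lowest with both transgenes. Its probe read 258.0 and 283.0 in Nanog+Sin3a cells, 390.7 and 357.6 in Nanog cells, 521.7 on the first Sin3a array and 486.3 and 527.6 in EV cells. The 3 pairs of arrays formed 3 steps with no overlap, and the first Sin3a array lay between the EV arrays. On the log2 scale Socs3 was lower by 0.91 (SE 0.10) in Nanog+Sin3a and by 0.44 (SE 0.10) in Nanog cells than in EV cells.

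The step between Nanog+Sin3a and Nanog cells in Socs3 was -0.47 (SE 0.10) and did not pass over all probes (limma adjusted p = 0.265). Against Sin3a alone, Nanog+Sin3a cells were lower by 0.95 (SE 0.13) and passed in the 7-array fit (limma adjusted p = 0.0347). With the second Sin3a array, at 283.0, that difference was -0.51 and did not pass (adjusted p = 0.445). At this brightness 21.0% of probes differed by over 1 on the log2 scale between the Sin3a arrays, against 0% between the EV arrays. Sin3a cells differed from EV cells by 0.04 (SE 0.13, limma adjusted p = 1).

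Cish, the other inhibitor of the family among the members, which is induced by Stat5 in blood cells, did not follow Socs3. It read 74.2 and 77.5 in Nanog+Sin3a cells, 76.7 and 87.1 in Nanog cells, 57.5 on the first Sin3a array and 57.9 and 67.6 in EV cells. All 4 arrays with the Nanog transgene were above the EV arrays, by 0.28 (SE 0.18) in Nanog+Sin3a and 0.39 (SE 0.18) in Nanog cells on the log2 scale, and neither difference was called.

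The promoters of both inhibitors and of Bcl3 are shown. They were picked for how these genes stood against EV, and a link between promoter letters and direction was not tested. STAT factors are known to bind TTCNNNGAA, which reads the same on both strands. RefSeq windows from 250 bases before to 50 after the start of each gene (GRCm38.p6) were searched for it. Matches are in capitals, and each sequence runs 5′ to 3′ on the strand of its gene.
Socs3, chr11:117969317-117969616, minus strand: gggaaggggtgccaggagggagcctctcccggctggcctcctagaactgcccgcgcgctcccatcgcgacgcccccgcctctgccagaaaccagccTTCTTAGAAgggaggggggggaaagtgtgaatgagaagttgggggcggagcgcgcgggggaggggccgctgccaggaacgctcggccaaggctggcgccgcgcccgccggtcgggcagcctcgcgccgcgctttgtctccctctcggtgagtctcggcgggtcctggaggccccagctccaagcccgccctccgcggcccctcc
Cish, chr9:107296409-107296708, plus strand: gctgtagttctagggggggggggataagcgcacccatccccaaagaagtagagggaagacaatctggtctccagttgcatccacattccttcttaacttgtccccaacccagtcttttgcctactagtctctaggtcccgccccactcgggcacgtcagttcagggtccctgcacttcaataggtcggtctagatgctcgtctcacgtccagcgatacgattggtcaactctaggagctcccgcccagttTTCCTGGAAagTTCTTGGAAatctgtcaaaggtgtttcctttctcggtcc
Bcl3, chr7:19822706-19823005, minus strand: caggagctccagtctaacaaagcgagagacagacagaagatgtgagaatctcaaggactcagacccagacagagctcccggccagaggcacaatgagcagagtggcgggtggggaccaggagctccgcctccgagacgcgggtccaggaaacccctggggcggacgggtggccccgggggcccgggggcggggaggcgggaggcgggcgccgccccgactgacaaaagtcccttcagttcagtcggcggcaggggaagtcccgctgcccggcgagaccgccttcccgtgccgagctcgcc
The window of Socs3 holds 1 match, TTCTTAGAA, that starts 154 bases before the start site, and that of Cish holds 2, which start at bases 1 and 12 counted from the start site. The windows of Bcl3 and of the other members hold none. In all, 2 of the 12 windows of the 10 members held the motif, against 2726 of 32851 RefSeq windows of this length, or 8.30%. A match describes letters only, and binding was not measured.

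Bcl3, an atypical member of the inhibitor of NF-kappaB family that acts in the nucleus with p50 and p52, was also low with both transgenes. Its probe read 51 and 39.5 in Nanog+Sin3a cells, 77.3 and 80.9 in Nanog cells, 87.9 on the first Sin3a array and 92.6 and 102.3 in EV cells. The Nanog+Sin3a arrays were the lowest, and the Nanog arrays lay between them and the EV arrays, with no overlap. The log2 difference from EV was -1.12 (SE 0.19) in Nanog+Sin3a and -0.30 (SE 0.19) in Nanog cells. Nanog+Sin3a cells differed from Nanog cells by -0.82 (SE 0.19, limma adjusted p = 0.266) and from Sin3a cells by -0.97 (SE 0.23, adjusted p = 0.121), and neither passed. With the second Sin3a array, which read 4.7, the difference from Sin3a cells was 0.26.

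**Figure D1:**
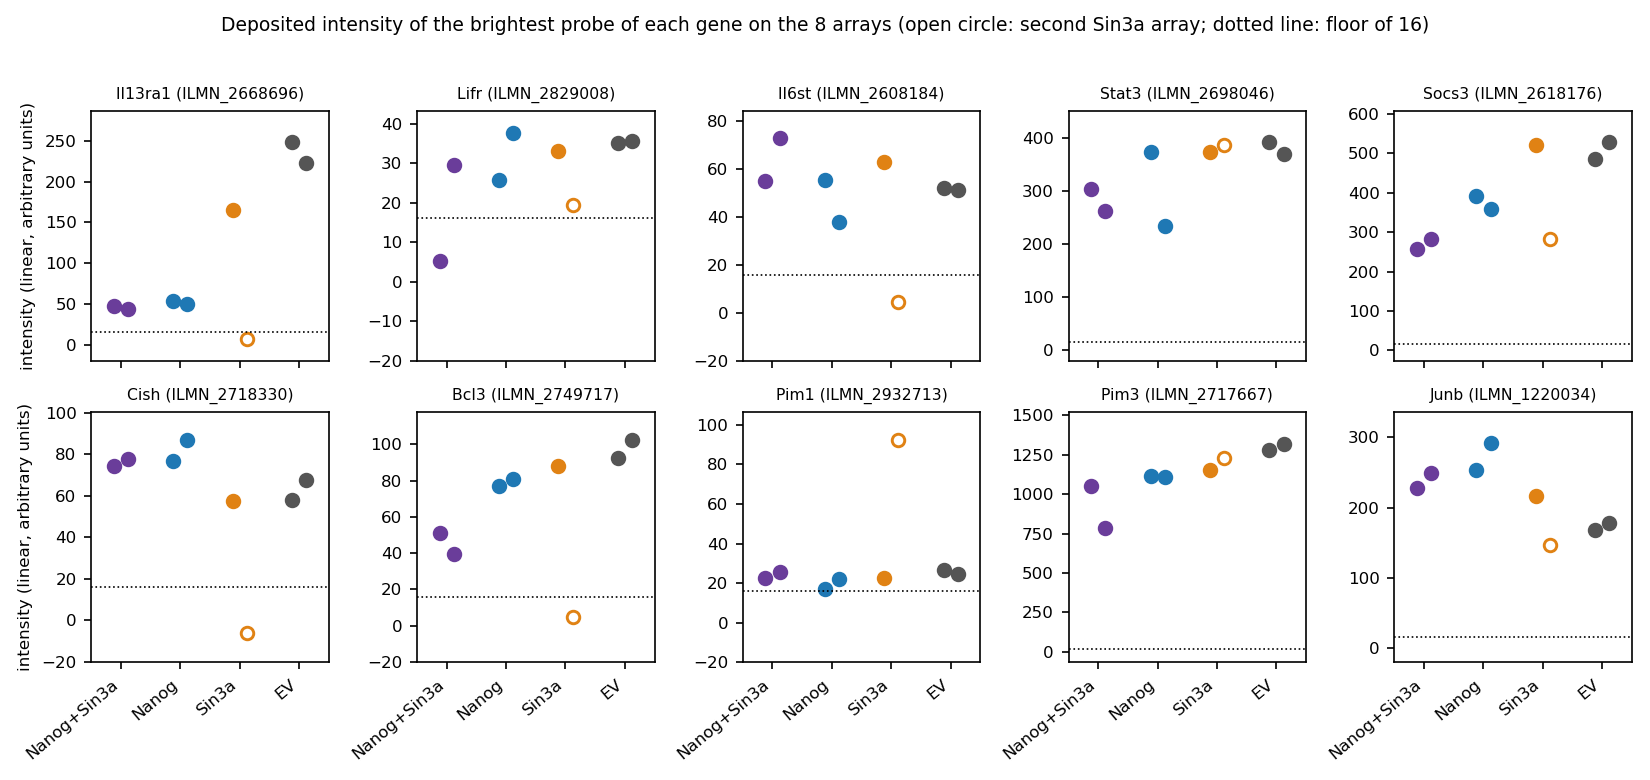
Deposited intensity (linear axis, its own range in each panel) of the brightest probe of each of the 10 genes, by group from Nanog+Sin3a to EV, where each point is 1 array, the open circle is the second Sin3a array and the dotted line the floor of 16. Il13ra1 is low on all 4 arrays with the Nanog transgene, Socs3 and Bcl3 are lowest on the Nanog+Sin3a arrays when the second Sin3a array, at 283.0 and 4.7, is set aside, and that array departs from the first for many probes.

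Pim1 and Pim3 encode serine/threonine kinases that promote survival, and both are known Stat3 targets in mouse embryonic stem cells. Pim3 was the only member above a mean log2 value of 9 and so the only member at a brightness where the second Sin3a array could be used. It read 1054.8 and 788.3 in Nanog+Sin3a cells, 1113.8 and 1112.1 in Nanog cells, 1150.9 and 1232.7 in Sin3a cells and 1281.0 and 1321.6 in EV cells. The groups followed this order without overlap, and the second Nanog+Sin3a array stood well below the first. The difference from EV was -0.51 (SE 0.14) in Nanog+Sin3a and -0.23 (SE 0.14) in Nanog cells. In the 8-array fit of 2670 bright probes Pim3 was called lower in Nanog+Sin3a than in EV cells, where 17.3% were called in either direction, and was not called in Nanog against EV cells, where 9.89% were. The members were chosen with these comparisons in view, so the call is a description. It was lost without the second Nanog+Sin3a array (-0.30) or the second EV array (-0.49). Between Nanog+Sin3a and Sin3a cells, where 11.6% were called, Pim3 differed by -0.39 (SE 0.13, limma adjusted p = 0.0539) and did not pass. This difference was -0.60 without the first Nanog+Sin3a array and -0.18 without the second. Whether it passed depended on which array was left out.

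Pim1 was near the floor on the 7 arrays, with 22.7 and 25.4 in Nanog+Sin3a cells, 17.2 and 22.1 in Nanog cells, 22.4 on the first Sin3a array and 26.4 and 24.5 in EV cells. Its differences from EV were -0.08 in Nanog+Sin3a and -0.38 in Nanog cells (SE 0.20 each), and a second Pim1 probe was below 0 on all 7 arrays.

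Junb, an AP-1 transcription factor and immediate early gene, was higher with Nanog. It read 227.9 and 248.8 in Nanog+Sin3a cells, 253.1 and 291.9 in Nanog cells, 216.3 on the first Sin3a array and 168.0 and 178.4 in EV cells. All 4 arrays with the Nanog transgene and the first Sin3a array were above both EV arrays, and the second Sin3a array, at 147.4, was below them. The difference from EV was 0.46 (SE 0.12) in Nanog+Sin3a and 0.65 (SE 0.12) in Nanog cells, and neither was called in the 7-array fit. Of 18 alternative fits, the Nanog difference was called in 3 and the Nanog+Sin3a difference in 0, as a description. Nanog+Sin3a cells differed from Nanog cells by -0.19 (SE 0.12, limma adjusted p = 0.654). A second Junb probe was not above the floor on any of the 7 arrays.

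**Figure D2:**
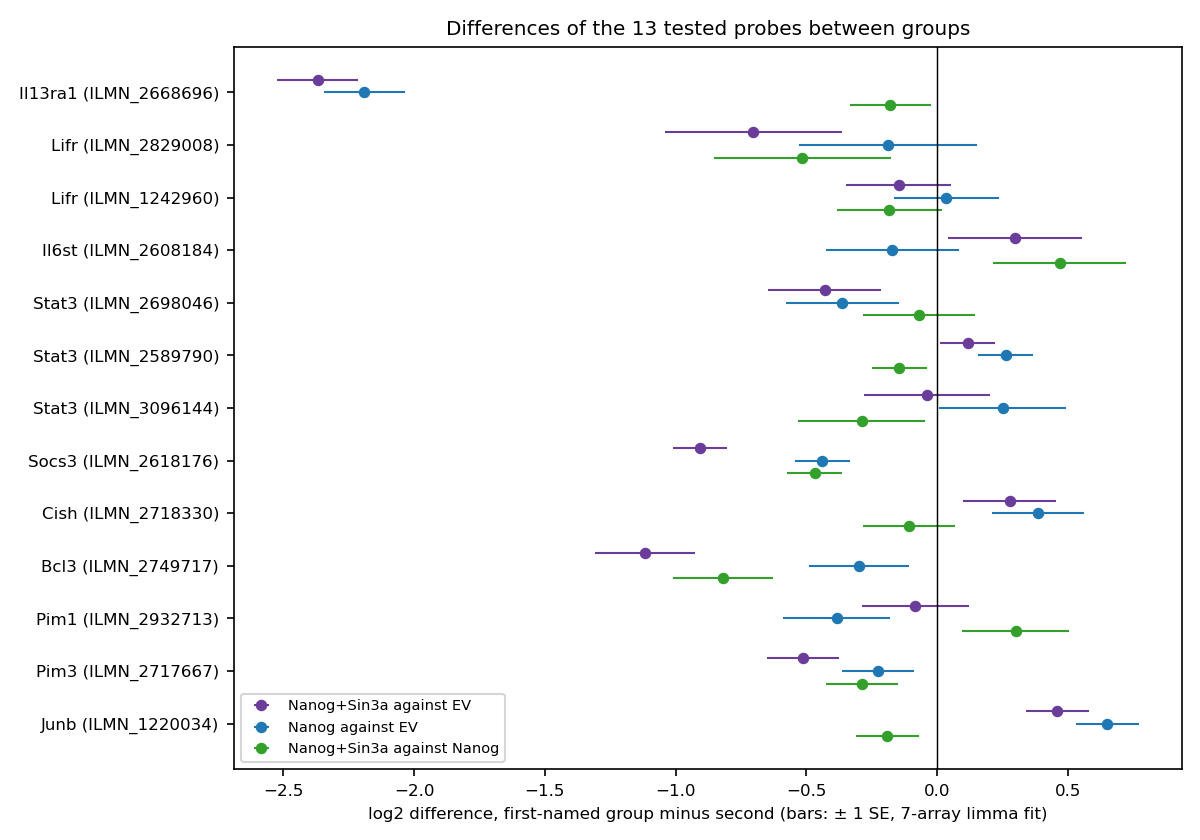
Log2 difference of each tested member probe with its standard error, in the 7-array fit, for Nanog+Sin3a against EV, Nanog against EV and Nanog+Sin3a against Nanog. Il13ra1 stands at -2.37 and -2.19 against EV, while Junb and Cish lie above 0 in both.

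Counted over the 13 tested probes, 3 were called lower in Nanog+Sin3a than in EV cells (Il13ra1, Socs3 and Bcl3) and 0 higher, where 5.87% of all 18558 probes were called in either direction 3.08% lower and 2.80% higher. In Nanog against EV cells 1 was called lower (Il13ra1) and 0 higher, where 2.04% of all probes were called 0.959% lower and 1.08% higher. The members were chosen on these comparisons, so the counts are a description. The arrays did not overlap for 6 probes lower and 4 higher in Nanog+Sin3a against EV cells, beside 27.4% lower and 26.0% higher over all probes. In Nanog against EV cells this held for 5 probes lower and 3 higher, beside 24.7% and 23.9%.

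The other comparisons share arrays with those, so they give no independent support. With 1 Sin3a array in the fit, the Sin3a transgene probe itself did not pass in Sin3a against EV cells. It read 1182.1 on that array, against 329.3 and 261.8 in EV cells. A lack of calls in that comparison therefore does not show a lack of change. In Nanog+Sin3a against Nanog cells limma called 0 of the 13 probes, where 0.0162% of all probes were called. At an unadjusted p under 0.05 stood 2 member probes (Socs3 and Bcl3) and 1937 of all 18558 probes. The arrays did not overlap for 6 probes lower and 1 higher, beside 17.0% and 16.5%. In Nanog+Sin3a against Sin3a cells 2 were called lower (Il13ra1 and Socs3), where 1.07% of all probes were called, 0.463% lower and 0.604% higher. In Sin3a against EV cells limma called 0 member probes and 0% of all probes, with 1 member probe (Il13ra1) and 658 of all probes at an unadjusted p under 0.05. For the interaction, the Sin3a effect with Nanog less that without it, limma called 0 members and 0% of all probes, with 2 members and 954 of all probes at an unadjusted p under 0.05. These 2 were Socs3 (-0.51, SE 0.16, adjusted p = 0.939) and Junb (-0.51, SE 0.19, adjusted p = 0.9498). For Bcl3 the interaction was -0.67 (SE 0.30) and for Il13ra1 0.33 (SE 0.25), and neither passed. With all 8 arrays the interaction was -0.07 for Socs3, -0.24 for Junb, 0.56 for Bcl3 and 2.01 for Il13ra1, and these did not pass.

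These calls were lost when single arrays were left out, while the log2 differences stayed near those above. Leaving out an array of a pair took the residual degrees of freedom to 2, against 3 with all 7. For Il13ra1 in Nanog against EV cells the call was lost without the first or second Nanog array (-2.26 and -2.12), the first or second Nanog+Sin3a array (-2.19 each) or the first or second EV array (-2.11 and -2.27). In Nanog+Sin3a against EV cells it was lost without either Nanog+Sin3a array (-2.42 and -2.32) or either EV array (-2.29 and -2.45). Socs3 lost its call there without the same 4 arrays (-0.84 and -0.97, then -0.97 and -0.85). Bcl3 lost it without those (-1.30 and -0.93, then -1.19 and -1.05) or either Nanog array (-1.12 each). The calls against Sin3a were lost without any 1 of the 6 other arrays, with limma adjusted p = 0.0808 to 0.193 for Il13ra1 and 0.101 to 0.198 for Socs3. With all 8 arrays limma called 0 members in these comparisons, where it called 0.137% of all probes in Nanog+Sin3a against EV, 0.0966% in Nanog+Sin3a against Sin3a and 0% in Nanog against EV cells.

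**Figure D3:**
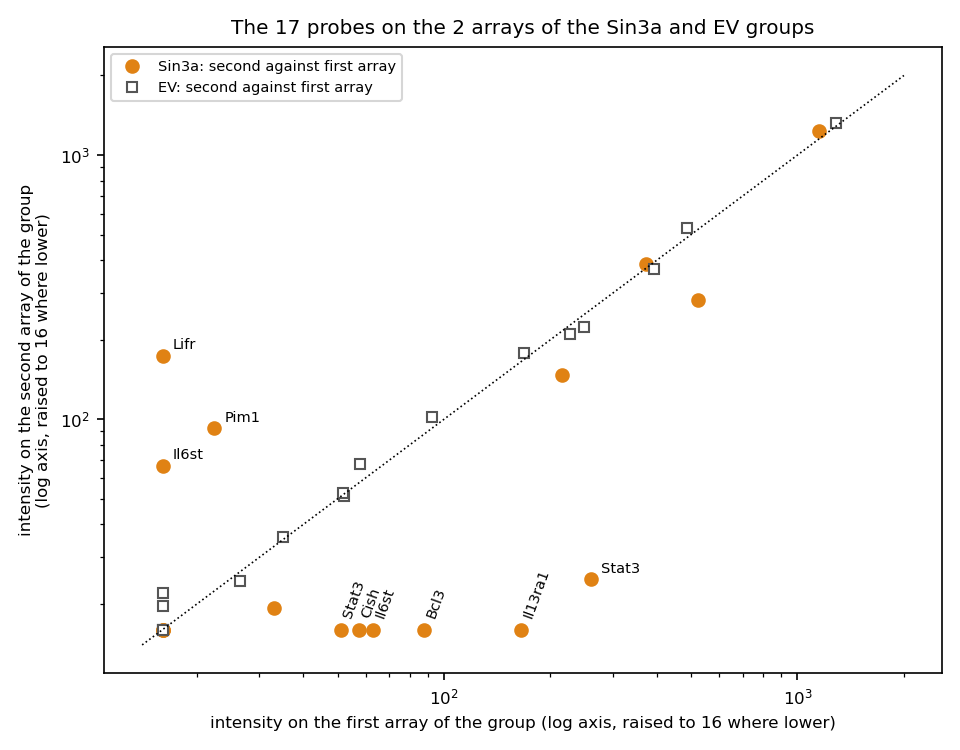
Intensity of the 17 member probes on the second against the first array of the Sin3a group (filled) and the EV group (open), on log axes with values below 16 raised to it. The EV points lie close to the diagonal, while the Sin3a points of the named genes lie over 1 on the log2 scale from it.

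The rest of the pathway was read in 7 lists of 92 other genes, chosen by role, of which 55 genes with 79 probes were tested. Earlier results of these arrays were known when the lists were made, so their counts and p-values are a description. In Nanog+Sin3a against EV cells 5 probes rose and 5 fell, 12.7% of the 79, where 5.87% of all probes were called (2.80% higher and 3.08% lower). In Nanog against EV cells 3 rose and 0 fell, 3.80%, where 2.04% of all probes were called. In Nanog+Sin3a against Sin3a cells 1 rose (Il20rb, by 1.62, limma adjusted p = 0.0359) and 1 fell (Sall4, by 1.65, adjusted p = 0.0250), where 1.07% of all probes were called, and in Nanog+Sin3a against Nanog cells and Sin3a against EV cells limma called 0 of the 79, with 11 and 4 probes at an unadjusted p under 0.05. Over all 18558 probes, 1937 and 658 were at that level in these 2 comparisons. With all 8 arrays limma called 0 pathway probes in each comparison. Pathway calls were lost in the same way. Against EV, Nanog+Sin3a cells had 0 calls without either Nanog+Sin3a array or either EV array, and had 3 without the first and 5 without the second Nanog array and 12 without the first Sin3a array. Nanog cells had 0 without any 1 of the Nanog+Sin3a, Nanog or EV arrays and 5 without the first Sin3a array, and the calls against Sin3a fell to 0 without any 1 of the other 6 arrays. The log2 differences of the 10 probes called in Nanog+Sin3a cells, the 3 called in Nanog cells and the 2 called against Sin3a kept their sign in all these fits and moved by at most 1.33 times, 1.08 times and 1.05 times.

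Of the ligands and receptors of the gp130 family, 3 genes with 5 probes were tested. Il6ra, the interleukin-6 binding chain that pairs with gp130, rose with Nanog. Its probe ILMN_1255743 read 165.6 and 140.2 in Nanog+Sin3a cells and 171.1 and 182.1 in Nanog cells, against 94.7 on the first Sin3a array and 96.7 and 87.9 in EV cells. It was higher than in EV by 0.72 in Nanog+Sin3a (limma adjusted p = 0.0412) and 0.94 in Nanog cells (adjusted p = 0.0350), and the 4 arrays with Nanog lay above all others. A second Il6ra probe rose by 0.97 in Nanog+Sin3a cells (adjusted p = 0.0451), and another, at 0.54, did not pass. Osmr, the oncostatin M receptor chain that also pairs with gp130, went the other way.

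Osmr read 67.5 and 69.7 in Nanog+Sin3a cells, 81.6 and 69.1 in Nanog cells, 138.3 on the first Sin3a array and 121.7 and 134.1 in EV cells. It was lower with Nanog on all 4 arrays, by 0.90 in Nanog+Sin3a cells (SE 0.16, limma adjusted p = 0.0309) and with -0.77 in Nanog cells, which did not pass (adjusted p = 0.0746). The fifth probe, of the ligand gene Ctf1, did not pass. The median over the 5 probes was 0.72 in Nanog+Sin3a and 0.75 in Nanog cells against EV, beside 0 over all tested probes. Most of these probes are of Il6ra, and the medians are the values of an Il6ra probe and of the Ctf1 probe. They therefore do not describe the family as a whole.

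Of the Janus kinases and other STAT factors, 5 genes with 8 probes were tested, and 1 probe of Jak1 fell in Nanog+Sin3a cells. It was at or below the floor on both Nanog+Sin3a arrays, against 35.6 and 39.5 in EV cells, which makes it at least 2.34-fold lower (limma adjusted p = 0.0270). A second Jak1 probe differed by 0.21 and did not pass. It read 6.7 and 23.8 in Nanog+Sin3a and 17.8 and 0.5 in EV cells. With 1 array of each group below the floor, it cannot be set against the first probe there. In Nanog cells, where both probes were above the floor, they went opposite ways against EV. The first probe, at 17.0 and 22.2, differed by -0.95, and the second, at 40.7 and 33.7, by 1.13. Neither passed, and the probes give no common direction for Jak1. Of the 22 probes of 14 inhibitors and phosphatases, limma called 0 in Nanog+Sin3a and 0 in Nanog cells against EV. At an unadjusted p under 0.05 stood 5 and 4 of them, beside 4540 and 3441 of all 18558 probes. The largest values were 0.76 for Pias2 and 0.56 for Ptpn11 in Nanog+Sin3a cells.

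Of 13 other reported Stat3 targets with 18 probes, 1 probe rose and 3 fell in Nanog+Sin3a against EV cells, and 1 rose in Nanog against EV cells. Both probes of Sall4, a zinc finger factor of pluripotent cells, fell by 1.37 and 1.32 in Nanog+Sin3a cells (limma adjusted p = 0.0108 and 0.0329). Cebpb, a leucine zipper factor of the acute phase response, fell by 0.73 (adjusted p = 0.0412). Gbx2, a homeobox gene, was at the floor in EV cells and at least 2.77-fold higher in Nanog+Sin3a cells (adjusted p = 0.0259). In Nanog cells 1 probe of Bcl2l1, which encodes the survival protein Bcl-xL, rose by 1.03 (adjusted p = 0.0359), while its other probes differed by 0.16 and 0.15.

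Of 9 other cytokine receptors with 14 probes, 2 genes rose in Nanog+Sin3a and 1 in Nanog cells against EV. Ghr, the growth hormone receptor, was higher by 2.52 in Nanog+Sin3a and 2.36 in Nanog cells for 1 probe (limma adjusted p = 0.00299 and 0.00635), while a second probe, at 0.47 and 0.72, did not pass. Il20rb, a receptor chain for interleukin-20 and related cytokines, read 113.7 and 122.6 in Nanog+Sin3a cells, 71.7 and 69.4 in Nanog cells, 38.3 on the first Sin3a array and 32.3 and 38.1 in EV cells. Its groups formed steps with no overlap, highest with both transgenes, and it was higher than in EV by 1.75 in Nanog+Sin3a (SE 0.18, adjusted p = 0.00744) and 1.01 in Nanog cells (adjusted p = 0.051).

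Of the 7 probes of 6 NF-kappaB factors and inhibitors limma called 0 against EV, with 1 in Nanog+Sin3a and 2 in Nanog cells at an unadjusted p under 0.05. Of the 5 probes of 5 other AP-1 genes it called 0, with 2 at that level in each. Over all 18558 probes, 4540 and 3441 were at that level in Nanog+Sin3a and Nanog cells. The nearest was 1 probe of Nfkbia, the feedback inhibitor of NF-kappaB, at 0.82 in Nanog+Sin3a (limma adjusted p = 0.054) and 0.97 in Nanog cells (adjusted p = 0.059). Of the AP-1 genes, Fosl2 differed from EV by 0.73 in Nanog+Sin3a and 0.74 in Nanog cells. The lists' medians against EV in Nanog+Sin3a cells ran from -0.03 for NF-kappaB to 0.72 for the gp130 family, where most probes are of Il6ra.

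**Figure D4:**
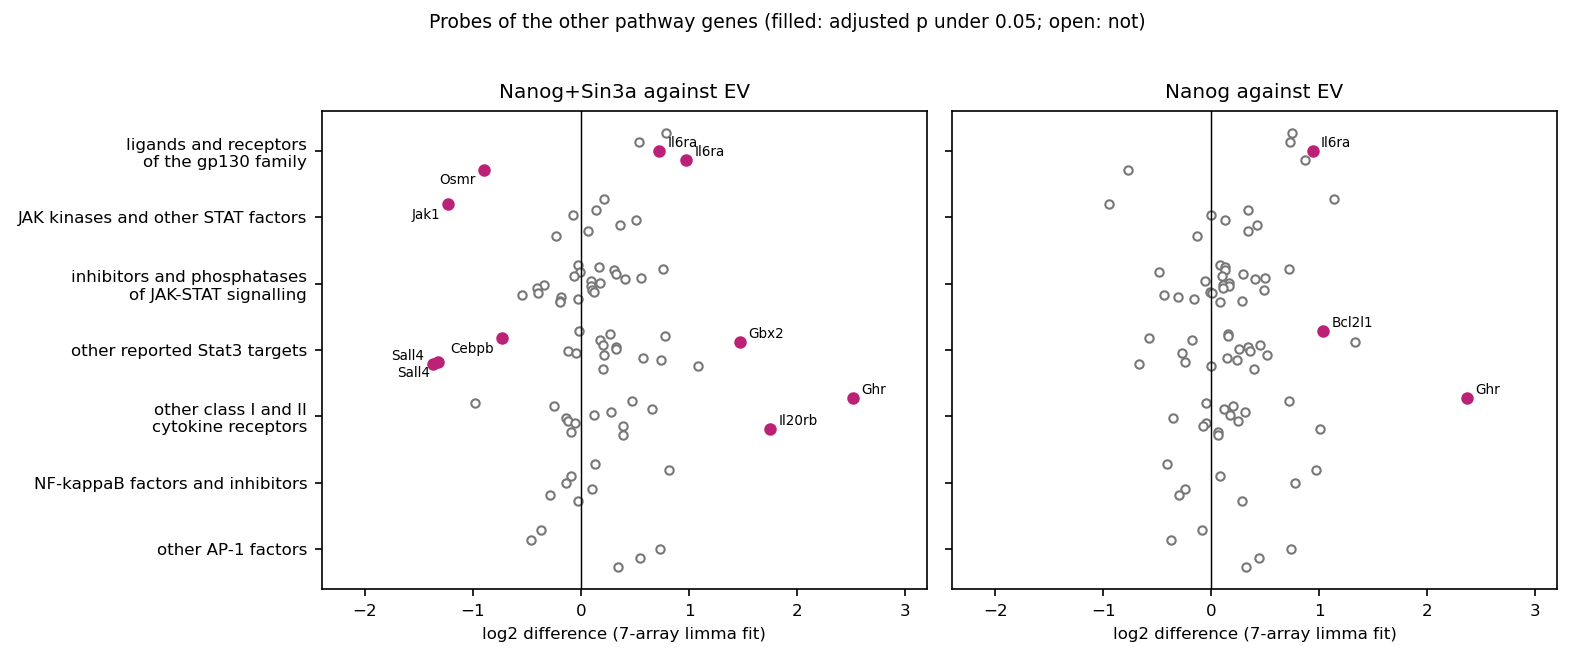
Log2 difference from EV of every tested probe of the 7 pathway lists in Nanog+Sin3a and Nanog cells, 1 point a probe, with the probes that passed marked. The inhibitors, NF-kappaB and AP-1 lists hold none that passed.

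Genes whose log2 values ran most like those of the members over the 7 arrays were sought among 11068 named probes above the floor on all 7. For Il13ra1 these were Bdnf (r = 0.996), Rap1gap (r = 0.989) and Krt12 (r = 0.988), and 111 probes had r over 0.95. For Socs3 they were Asxl1 (r = 0.996), Ahctf1 (r = 0.991) and Gm1673 (r = 0.991), with 112 probes over 0.95. For Bcl3 they were Cnot4 (r = 0.988), Polr1b (r = 0.987) and Zfp326 (r = 0.978), with 52 over 0.95. These values share arrays and normalization and describe likeness only.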

How the data were processed

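The authors deposited intensity per probe on a linear scale, made with GenomeStudio, with no version or settings named, per the submitters' processing notes. Values below 0 (47.3% to 47.7% an array) show that a background had been subtracted, and every array had the same lowest (-24) and highest (14965.3) value, so the values were taken as already normalized between arrays. Symbols came from the array annotation, and all 17 member probes kept theirs by RefSeq gene identifier.

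Values were raised to a floor of 16 and converted to log2. Probes above it on at least 2 of 7 arrays went into limma 3.58.1 under R 4.3.3 (lmFit, eBayes with an intensity trend, 1 coefficient per group), two-sided, with Benjamini-Hochberg adjustment over all 18558 probes at 0.05. The lone Sin3a array was assumed to vary like the others. The second was left out for its noise. The procedure was run on simulated data, with changes placed only in probes above a mean log2 value of 7. Dimmer members, such as Il13ra1 and Bcl3 (6.50 and 6.18), are not covered by it. The number of arrays limits precision.

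Members, lists and the 7-array choice were made with earlier results of these data known. Named were all member probes, of each list and comparison up to 4 passing probes that changed most, or 2 where none passed, and for likeness the 3 nearest genes. Alternatives varied the arrays, floor, offset, filter, normalization, probe choice, trend and block.

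Replicate numbers did not pair arrays: same-numbered deviations correlated at -0.0451 for Nanog and EV, -0.0191 for Nanog+Sin3a and EV and -0.0534 for Nanog+Sin3a and Nanog.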

Additional observations from a re-analysis of the deposited data

Results flagged for a closer look

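Values on the second Sin3a array, which the 7-array fit left out, stood above all other arrays for 3 member probes. Lifr probe ILMN_2829015 read 174.3 there, Il6st probe ILMN_2452075 read 66.8, and Pim1 probe ILMN_2932713 read 92.5. The 2 probes of Lifr and Il6st were close to or below the floor of 16 on the other arrays, at most 22.1. Of 22484 probes at or below the floor on the other 7 arrays, 5472, or 24.3%, were above it on this array. With 2 arrays per group no test for an outlying array within a group was possible.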

How the results depend on the processing

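Counts of called members moved with the choice of arrays and settings, and the cause was not tested. In Nanog against EV, Nanog+Sin3a against EV and Nanog+Sin3a against Sin3a the counts were 1, 3 and 2. They were 0, 0 and 0 with all 8 arrays, 0, 1 and 0 among bright probes, 2, 4 and 0 with array weights, 2, 4 and 3 with an offset of 32, and 0, 0 and 1 with no filter. A floor of 32 gave 2 in Nanog against EV, and a fit with no intensity trend gave 1 against Sin3a. Leaving out 1 array gave 0 to 1, 0 to 3 and 0. In the bright fit, Pim3 in Nanog+Sin3a against EV was called at -0.51, but not without the second Nanog+Sin3a array (-0.30) or the second EV array (-0.49). With the replicate block, from numbers that do not pair the arrays, the counts were 1, 2 and 0. Pathway counts of 3, 10 and 2 became 0 with all 8 arrays, and 1, 0 and 2 among 5 bright probes. Leaving out 1 array gave 0 to 5, 0 to 12 and 0.

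With all 8 arrays or array weights, direction turned against Sin3a for Bcl3 (0.26), Pim1 (-0.92) and Stat3 probes ILMN_2589790 (1.56) and ILMN_3096144 (0.83). In Sin3a against EV it turned for Il6st (-0.70), Pim1 (0.84), Socs3 (-0.40) and Stat3 probe ILMN_2589790 (-1.45), and in the interaction for Bcl3 (0.56). The replicate block turned Sin3a against EV for Lifr (0.15) and Stat3 probe ILMN_3096144 (0.0431), and the offset of 32 turned Lifr probe ILMN_1242960 in Nanog against EV (-0.0895). Leaving out 1 array gave ranges that cross 0 for values not called. Against EV in Nanog cells these were -0.46 to 0.0853 (Lifr probe ILMN_2829008), -0.11 to 0.22 (Lifr probe ILMN_1242960), -0.44 to 0.10 (Il6st) and -0.0491 to 0.55 (Stat3 probe ILMN_3096144). They were -0.12 to 0.0395 in Nanog+Sin3a against EV, -0.59 to 0.0107 in Nanog+Sin3a against Nanog and -0.0815 to 0.0744 in Nanog+Sin3a against Sin3a for Stat3 probe ILMN_3096144. In Sin3a against EV they were -0.0682 to 0.0175 (Stat3 probe ILMN_2698046) and -0.0162 to 0.10 (Socs3). Nanog+Sin3a against Nanog gave -0.40 to 0.27 for Stat3 probe ILMN_2698046, and Nanog+Sin3a against Sin3a gave -0.20 to 0.22 for Il6st.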
